A study of Mus musculus with 6 samples.

Results

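The insulin and IGF receptors, their substrates, a ligand and a binding protein were followed in mouse megakaryocyte progenitors (MkP), the committed precursors of megakaryocytes, the cells that shed platelets. The members were all probe sets whose platform annotation gives Igf1r, Igf1, Igf2r, Insr, Irs1, Irs2 or Igfbp4 as the only symbol, which made 22 of 45037 probe sets and 7 of 18193 genes. The 3 bone marrow samples came from wild-type C57BL/6 mice aged 12 to 18 weeks and the 3 fetal liver samples from wild-type C57BL/6 embryos at E13.5, none carrying a further allele or treatment per the labels. In both tissues the cells were sorted as lin-, Sca-1-, c-kit+, CD150+ and CD41+, and total RNA was hybridised to 1 Affymetrix array per sample. The labels call the samples biological replicates without saying how many animals each pooled, so p-values measure the spread between these samples, and adult marrow and fetal liver differ in age as well as organ.

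Insulin-like growth factors bind the receptor tyrosine kinase IGF1R, and insulin binds the related receptor INSR. Both receptors phosphorylate the docking proteins IRS1 and IRS2, which recruit PI3 kinase, activate AKT and mTOR and keep FOXO transcription factors out of the nucleus. IGF2R has no kinase: it carries lysosomal enzymes that bear mannose 6-phosphate and removes IGF2 from the cell surface, while IGFBP4 holds IGFs in the extracellular fluid until the protease PAPP-A cleaves it. Fetal megakaryocyte progenitors have been described as more dependent on IGF signalling than adult ones, and the comparison of fetal liver with marrow bears on the transcripts of that pathway.

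Signals are MAS5 intensities on a linear scale, and changes are log2(signal + 2.87), fetal liver minus marrow. Each carries its standard error (SE) and 95% interval from a limma fit over all 27022 probe sets that passed a filter on dim signals. A signal counts as above background when it exceeds the highest bacterial control probe set of its array (22.2 to 35.1). Of the 22 member probe sets, 18 passed the filter, and 16 were above background on all 6 arrays. By limma at a Benjamini-Hochberg adjusted p of 0.05, 0 of the 18 were past the threshold in either direction, against 5.06% of all kept probe sets (1.78% higher in fetal liver, 3.28% higher in marrow), and 7 of the 18 had an unadjusted p under 0.05, against 20.1% of all. The arrays of the tissues did not overlap for 9 of the 22 (40.9%), against 20.5% of all probe sets. Among the 18 kept, fetal liver lay above marrow without overlap for 4, against 11.1% of all kept probe sets, and marrow above fetal liver for 3, against 14.4% (25.5% in either direction). The other 2 were Igf1 probe sets below background. Probe sets of a gene share a target, so these counts are not of independent measurements. Igfbp4 was the member with several probe sets past the filter whose mean signals were lower in fetal liver by all 6, and Igf2r had a higher mean by both of its own. Where a transcript was lower, fewer expressing cells and less RNA per cell cannot be told apart in these bulk samples.

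The sequences before the listed start of Igf1r, Igf1 and Igfbp4 are set out because these are, in that order, the receptor with the most probe sets, the ligand near background and the binding protein with lower mean signals in fetal liver. They are the 250 bases upstream of the start in RefSeq's table for GRCm38.p6, 5′ to 3′ on the gene's strand, at chr7:67952007-67952256 (+), chr10:87860861-87861110 (+) and chr11:99040994-99041243 (+), with GGGCGG, the core of the SP1 motif, in capitals.
Igf1r: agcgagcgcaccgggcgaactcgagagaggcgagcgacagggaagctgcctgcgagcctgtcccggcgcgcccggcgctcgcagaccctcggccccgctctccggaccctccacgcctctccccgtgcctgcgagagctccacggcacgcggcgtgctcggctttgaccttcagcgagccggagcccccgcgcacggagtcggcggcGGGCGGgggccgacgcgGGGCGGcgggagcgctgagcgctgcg
Igf1: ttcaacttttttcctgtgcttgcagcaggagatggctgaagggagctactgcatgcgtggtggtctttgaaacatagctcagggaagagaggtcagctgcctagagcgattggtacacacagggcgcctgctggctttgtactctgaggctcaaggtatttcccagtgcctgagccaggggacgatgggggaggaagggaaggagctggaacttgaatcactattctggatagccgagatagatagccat
Igfbp4: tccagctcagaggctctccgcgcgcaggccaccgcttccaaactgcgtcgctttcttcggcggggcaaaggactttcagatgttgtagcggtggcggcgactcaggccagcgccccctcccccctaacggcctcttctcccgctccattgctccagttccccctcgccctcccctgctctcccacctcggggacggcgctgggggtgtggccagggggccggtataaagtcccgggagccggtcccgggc
The Igf1r window lies just before its gene. Those of Igf1 and Igfbp4 lie inside the listed gene spans, which begin at 87858265 and 99040005. The Igf1r window was 77.6% G or C with 42 CpG dinucleotides, that of Igfbp4 69.2% with 22 and that of Igf1 52.8% with 5, against medians of 52.4% and 6 over 32851 windows of the same length. GGGCGG, searched on both strands, was found 2 times before Igf1r and in neither of the others, and 32.7% of all windows held it. Of further motifs searched on both strands, AGATAA, bound by GATA1 and its relatives, was in 9.99% of all windows. GTAAACA, bound by FOXO proteins, was in 3.17% and CCGGAAG, bound by ETS proteins, in 6.91%. None of these was found in the windows of the 6 members that the table holds. A match or its absence is a description of these letters only.

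**Figure D1:**
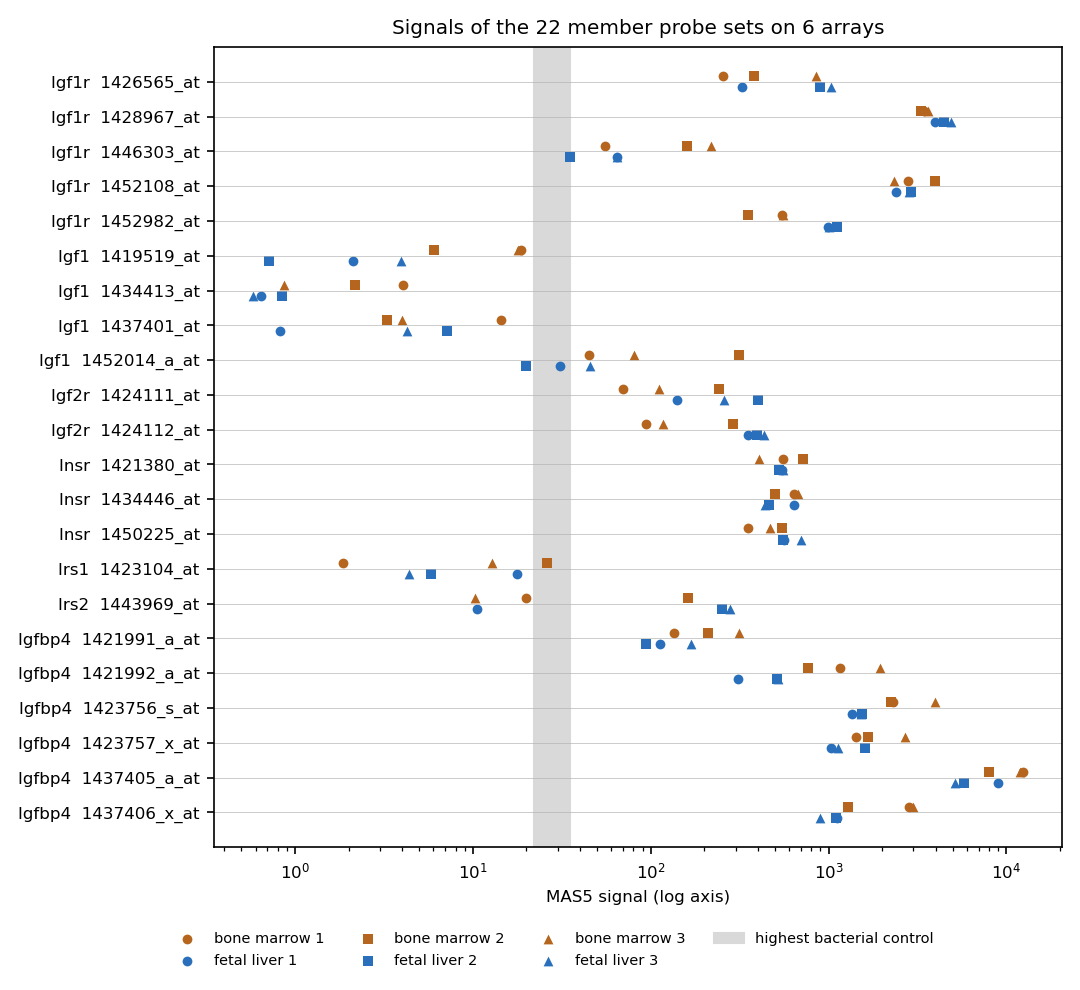
MAS5 signal (log axis) of each of the 22 member probe sets on the 3 bone marrow arrays (brown) and the 3 fetal liver arrays (blue), with the marker shape giving the replicate. The grey band spans the highest bacterial control signal of the arrays, 22.2 to 35.1; 3 probe sets of Igf1 and the probe set of Irs1 were on no array above their own array's control, and all 6 of Igfbp4 had a lower mean in fetal liver.

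Igf1, the ligand of IGF1R, was close to the limit of detection. Of its 4 probe sets, 3 (1419519_at, 1434413_at and 1437401_at) were on none of the 6 arrays above background, so no fold is given for them. The fourth, 1452014_a_at, had signals of 45.0, 315 and 80.5 in marrow (replicates 1, 2 and 3, as throughout) and of 31.0, 19.8 and 45.8 in fetal liver. It was above background on 3 of 3 marrow arrays and 1 of 3 fetal liver arrays, marrow replicate 2 stood far above the others, and marrow replicate 1 lay just under fetal liver replicate 3. The change was -1.69 ± 0.75 (SE, n = 3 against 3, limma adjusted p = 0.237). Its 95% interval of -3.35 to -0.04 runs from a large to a negligible difference.

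Igf1 is known from macrophages and stromal cells as well as from liver, and markers of those cells did not move alike. The summed signal of 11 macrophage markers was 2016 to 3907 in the marrow arrays and 406 to 562 in the fetal liver arrays, with 11 and 7 of the 11 genes above background on some array of the tissue. Within marrow, the macrophage sums of replicates 1, 2 and 3 were 2016, 2328 and 3907, beside Igf1 signals (1452014_a_at) of 45.0, 315 and 80.5. Csf1r, the receptor for macrophage colony-stimulating factor, had a mean of 1676 in marrow and 195 in fetal liver, and C1qb, a complement chain, 219 and 41.2. The defining markers Adgre1, C1qa, C1qc and Cd163 were on no fetal liver array above background. Marco and Timd4, of the same list, ran the other way near background, with means of 21.4 and 18.4 in marrow and 47.0 and 39.3 in fetal liver. The part of these cells in the Igf1 signal was not tested.

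Igfbp4, which binds IGFs and limits their access to receptors, had a lower mean signal in fetal liver by every probe set, with changes from -0.58 to -1.47, none of them past the threshold. Probe set 1421992_a_at had signals of 1163, 770 and 1949 in marrow and 308, 512 and 519 in fetal liver. Every marrow array was above every fetal liver array. The change was -1.47 ± 0.38 (SE, adjusted p = 0.0535), or 2.76-fold. It was past the threshold in 5 of 15 alternatives, among them the fit without marrow replicate 2 (-1.79, adjusted p = 0.0299).

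Probe set 1437406_x_at of Igfbp4 had signals of 2847, 1289 and 2998 in marrow and 1109, 1099 and 892 in fetal liver. Marrow replicate 2 lay closest to the fetal liver arrays, and the tissues did not overlap. The change was -1.11 ± 0.33 (SE, adjusted p = 0.0800), and -1.50 without marrow replicate 2 (adjusted p = 0.00972). That fit was the only 1 of 15 alternatives past the threshold, with a limma adjusted p of up to 0.253 in the others. Probe set 1423756_s_at had 2308, 2229 and 3946 in marrow and 1358, 1541 and 1518 in fetal liver, again without overlap, and a change of -0.89 ± 0.26 (adjusted p = 0.0768).

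Probe set 1437405_a_at, which stands for Igfbp4 in the gene lists, had 12462, 7941 and 11895 in marrow and 9010, 5759 and 5166 in fetal liver. Fetal liver replicate 1 exceeded marrow replicate 2, so the tissues overlapped. The change was -0.71 ± 0.24 (SE, adjusted p = 0.128), and -0.95 without fetal liver replicate 1 (adjusted p = 0.0427). It was past the threshold in 2 of 16 alternatives, with a limma adjusted p from 0.0377 to 0.396 over them. The remaining 1423757_x_at and 1421991_a_at overlapped as well, with changes of -0.58 ± 0.30 and -0.76 ± 0.49 (adjusted p = 0.311 and 0.437).

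The fit by probe set called no Igfbp4 probe set. In 1 of the 18 alternatives to it, the log2 signals of a gene's kept probe sets were averaged and the fit was adjusted over 11625 genes. There the Igfbp4 change was -0.92 ± 0.24 (SE, 95% interval -1.46 to -0.38, limma adjusted p = 0.0457), just past the threshold, which 8.54% of all genes passed, 5.07% higher in marrow. The other member genes did not pass it. With the brightest probe set standing for each gene, the other fit by gene, Igfbp4 stayed short of the threshold (-0.71, adjusted p = 0.109). The 6 probe sets form 3 pairs, each designed on 1 transcript entry, and carry the suffixes a, s or x, which Affymetrix gives to probe sets that match several transcripts, of the same gene or of others, so they are not 6 independent readings. Across the 6 arrays their log2 signals correlated with each other at 0.38 to 0.96, a description over arrays that share the tissue contrast.

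**Figure D2:**
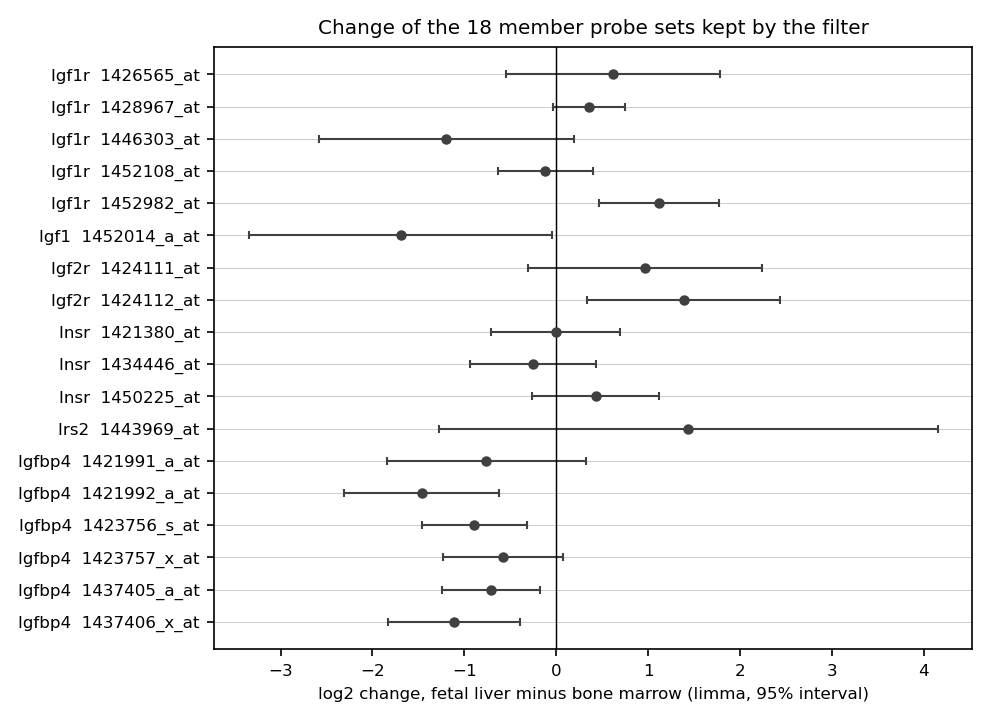
Log2 change, fetal liver minus bone marrow, of the 18 member probe sets kept by the filter, as points with the 95% interval of the limma fit. The intervals of 4 Igfbp4 probe sets, 1 Igf1 probe set, 1452982_at of Igf1r and 1424112_at of Igf2r exclude 0, and 0 of the 18 were past the adjusted threshold.

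Igf1r, the receptor kinase for both IGFs, was above background on all arrays by all 5 probe sets, which did not give a common direction. Probe set 1452982_at had signals of 546, 353 and 553 in marrow and 988, 1119 and 1002 in fetal liver. Every fetal liver array was above every marrow array. The change was 1.12 ± 0.29 (SE, 95% interval 0.47 to 1.77, adjusted p = 0.0549), or 2.18-fold. It was past the threshold under median centring (1.37, adjusted p = 0.0192) and with a floor at the bacterial controls (1.13, adjusted p = 0.0498), within 0.0192 to 0.221 over 16 alternatives.

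Probe set 1428967_at of Igf1r, designed on the same cDNA entry, also separated the tissues, but by less. Its signals were 3428, 3312 and 3632 in marrow and 3978, 4439 and 4892 in fetal liver. The change was 0.36 ± 0.18 (SE, adjusted p = 0.302), or 1.28-fold. Probe set 1452108_at, from another cDNA entry, had 2785, 3946 and 2322 in marrow and 2405, 2912 and 2842 in fetal liver. These overlapped in full, with a change of -0.12 ± 0.23 and a 95% interval of -0.63 to 0.40 (adjusted p = 0.834), below the whole interval of 1452982_at; the difference between the probe sets was not tested.

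The other probe sets of Igf1r were more scattered. Probe set 1426565_at, from the same entry as 1452108_at, had 255, 382 and 847 in marrow and 326, 891 and 1031 in fetal liver (0.62 ± 0.53, SE, adjusted p = 0.575). Its lowest signals were in replicate 1 of each tissue, the arrays with the lowest 5′ to 3′ signal ratio of Gapdh, which drops where transcripts are degraded or labelled short (0.0990 and 0.109, against 0.177 to 0.449 on the other arrays). The same ratio of Actb was lowest in fetal liver replicate 1 (0.892). In marrow replicate 1 it was 1.08, between the other marrow arrays (1.06 and 1.13). The part of either ratio in the signal was not tested. Probe set 1446303_at had 55.1, 160 and 217 in marrow and 64.5, 35.1 and 64.3 in fetal liver, with a change in the other direction of -1.20 ± 0.63 (adjusted p = 0.328), and marrow replicate 1 fell within the fetal liver range. With all 5 averaged, Igf1r changed by 0.16 ± 0.25 (95% interval -0.40 to 0.71, adjusted p = 0.769 over genes).

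Insr, the insulin receptor, gave changes on both sides of 0. Probe set 1421380_at had 551, 721 and 405 in marrow and 544, 529 and 551 in fetal liver. The fetal liver arrays lay inside the range of the marrow arrays, and the change was -0.01 ± 0.32 (SE, 95% interval -0.71 to 0.70, adjusted p = 0.993). Probe set 1434446_at overlapped too, at -0.25 ± 0.31 (adjusted p = 0.721). Probe set 1450225_at had 354, 544 and 466 in marrow and 563, 556 and 701 in fetal liver, just without overlap, at 0.43 ± 0.31 (adjusted p = 0.506). With the 3 averaged the change was 0.06 with a 95% interval of -0.44 to 0.55, which covers differences of that size in either direction.

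Igf2r, the mannose 6-phosphate receptor that clears IGF2, had a higher mean in fetal liver by both of its probe sets. Probe set 1424112_at had signals of 94.4, 291 and 117 in marrow and 350, 396 and 433 in fetal liver. Marrow replicate 2 was close to the fetal liver arrays, and the tissues did not overlap. The change was 1.39 ± 0.48 (SE, 95% interval 0.33 to 2.44, adjusted p = 0.131), and 1.87 without marrow replicate 2 (adjusted p = 0.0380). That fit was the only 1 of 17 alternatives past the threshold, with a limma adjusted p of up to 0.356 in the others. Probe set 1424111_at had 69.7, 243 and 112 in marrow and 141, 402 and 258 in fetal liver, with overlap and a change of 0.96 ± 0.58 (adjusted p = 0.397).

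A further probe set, 1440979_at, is listed for both Igf2r and Airn, the RNA transcribed across Igf2r from the opposite strand, and was not counted with either. Its signals were 35.1, 33.3 and 36.5 in marrow and 31.7, 49.9 and 60.1 in fetal liver, near background throughout (0.36 ± 0.58, adjusted p = 0.793).

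The receptor substrates were dim. Irs1 was represented by 1423104_at, whose signals of 1.87, 26.2 and 12.9 in marrow and 17.7, 5.82 and 4.36 in fetal liver were on no array above background. Its level could therefore not be compared. Irs2, the other docking protein and itself a target of FOXO factors in other tissues, was represented by 1443969_at with 19.8, 162 and 10.3 in marrow and 10.6, 251 and 281 in fetal liver. Marrow replicate 2 and fetal liver replicates 2 and 3 were high and the other 3 arrays were not above background, so the arrays of each tissue were split and the tissues overlapped. The change was 1.44 ± 1.23 (SE, 95% interval -1.28 to 4.15, adjusted p = 0.577).

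The patterns over the 6 arrays were set against those of the 11625 genes with a kept probe set, by Pearson correlation of log2 signal, as a description. The genes most like Igf1r (1428967_at) were Tbc1d16 (r = 0.992) and Rbmx2 (0.991), and those most like Igf2r (1424112_at) were 2310009B15Rik and U2af2 (0.990 and 0.989). Those most like Igfbp4 (1437405_a_at) were Stk17b and Actb (both 0.997), and those most like Irs2 were Trim24 and Fam78a (0.988 and 0.985). For Igf1 they were Sel1l and Phka2 (0.991 and 0.988), and for Insr (1434446_at) Rps24 and Mtrf1l (0.994 and 0.991). These are the highest of many correlations over 6 arrays, and how high they would be for other patterns was not tested.

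Around the members, 130 genes of the pathway were listed, of which 119 had a probe set and 99 a kept one, each taken at its brightest kept probe set. The lists were chosen with earlier results of these data known, so a share above that of all genes is a description only. Igf2 and Stc2, both called, passed the filter through fetal liver alone. Of the 99, 6 passed the threshold with the higher mean in fetal liver and 5 with the higher mean in marrow, 11.1% against 6.36% of all 11625 genes (2.26% higher in fetal liver, 4.09% in marrow), with a median change of 0.01 against 0.01 over all. Without fetal liver replicates 2 and 3 each count fell to 2, and without marrow replicate 1 only 2 were higher in marrow; that count was 3 without marrow replicates 2 and 3 each.

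**Figure D3:**
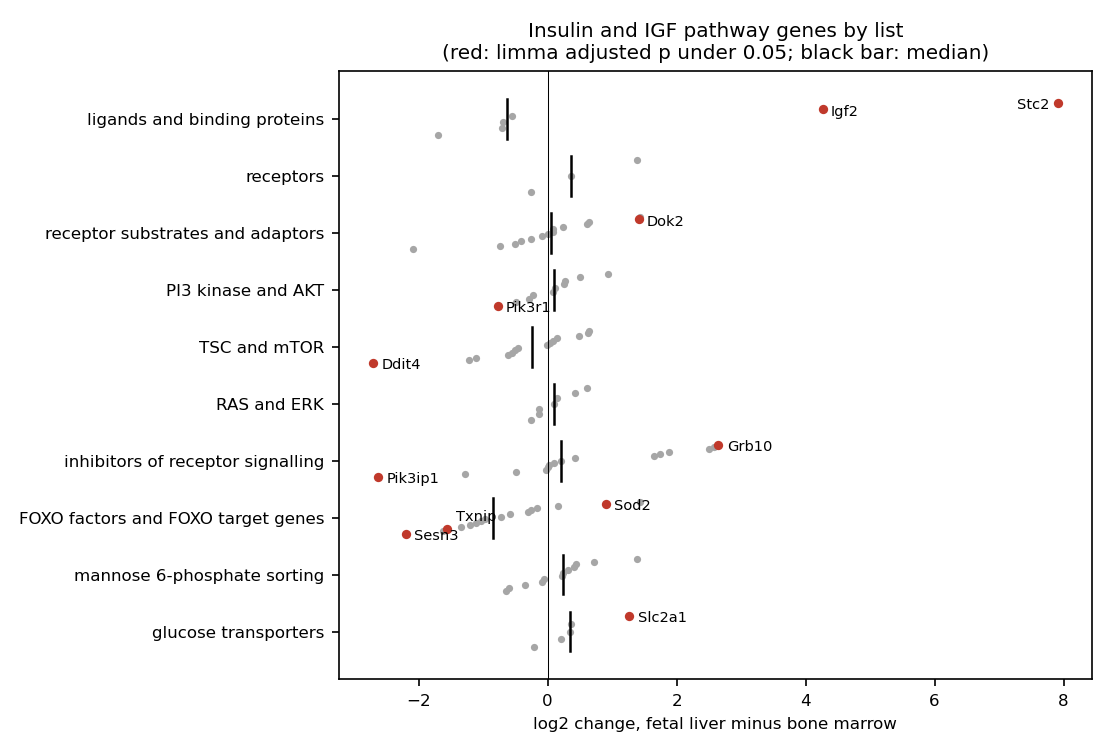
Log2 change, fetal liver minus bone marrow, of each measured gene of 10 pathway lists, with the genes past the limma threshold in red and named and each list's median as a black bar. The largest rises are of Stc2 and Igf2, which were on no marrow array above background and passed the filter through fetal liver alone. Their plotted size rests on those marrow signals, and only at least 44.6-fold (Stc2) and 5.62-fold (Igf2) can be given. The FOXO list has the lowest median, -0.85.

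Among ligands and binding proteins, 2 of 6 kept genes rose in fetal liver and 0 fell. Both were on no marrow array above background and passed the filter through fetal liver alone, and 10 of the 16 with a probe set were removed by it, so the count cannot be read apart from the filter. Igf2, the fetal growth factor that signals through IGF1R and INSR, had signals of 2.39, 25.9 and 1.66 in marrow, all below background, and 193, 178 and 133 in fetal liver, at least 5.62-fold higher (adjusted p = 0.0114). Without any one fetal liver array, or with the filter at the 60th percentile, Igf2 was removed and had no test; it was past the threshold in the 13 alternatives that kept it. Stc2, stanniocalcin 2, an inhibitor of the protease that cleaves IGFBP4, had 4.24, 1.41 and 2.87 in marrow and 2041, 900 and 1309 in fetal liver, at least 44.6-fold higher (adjusted p = 4.39e-05). The protease gene Pappa was below the filter, at 13.1 to 23.4 in marrow and 1.32 to 16.5 in fetal liver. The list's median of -0.63 is negative because Igf1, Igfbp2, Igfbp4 and Igfbp7, none past the threshold, were lower.

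Hepatocyte RNA, a known source of IGFs and their binding proteins, was uneven among the arrays. The summed signal of 8 hepatocyte markers was 261 to 716 in marrow and 918, 3727 and 675 in fetal liver. Afp, alpha-fetoprotein, stood at 2793 in fetal liver replicate 2. Igf2 was at 193, 178 and 133 in fetal liver replicates 1, 2 and 3. Igfbp1, a hepatic binding protein, was above background in fetal liver replicate 2 alone, at 76.8. Fgb was on no array above background. The part of hepatocyte RNA in the results was not tested.

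Of 3 kept receptor genes, 0 were past the threshold (1 at an unadjusted p under 0.05, Igf2r), and Insrr was below the filter. Of 14 kept substrates and adaptors, Dok2, a docking protein of blood cells that restrains RAS, rose from 312, 319 and 406 to 698, 1033 and 1073 in fetal liver (1.41 ± 0.31, SE, adjusted p = 0.0287), and 0 fell. The call was lost without any one of marrow replicates 1 or 2 or fetal liver replicates 2 or 3 (adjusted p = 0.0647, 0.0572, 0.154 and 0.156), and without the intensity trend (0.0641). Of 10 PI3 kinase and AKT genes, Pik3r1, the regulatory subunit p85 alpha, fell by 0.78 ± 0.20 (adjusted p = 0.0474), from 3379, 4146 and 3739 to 2035, 2078 and 2462. That call was lost with any of the 6 arrays left out (adjusted p = 0.0673 to 0.188) and under median centring (-0.53, adjusted p = 0.150), with no filter (0.0696) and without the trend (0.177).

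Of 14 TSC and mTOR genes, Ddit4, an inhibitor of mTOR that is induced by stress and hypoxia, fell by 2.71 ± 0.33 (SE, adjusted p = 0.00116), from 2348, 2645 and 4203 to 315, 635 and 461. It was past the threshold in all 17 alternatives. None of the other 13 passed. The smallest p among them was of Deptor, another inhibitor of mTOR, lower in fetal liver without overlap (-1.22 ± 0.33, limma adjusted p = 0.0596). Mtor itself differed by 0.15 ± 0.24 (adjusted p = 0.792). Of 7 RAS and ERK genes 0 passed (1 at an unadjusted p under 0.05). The smallest p values there were of Nras (0.61 ± 0.22, adjusted p = 0.149, and 0.86 with adjusted p = 0.0342 under median centring) and Map2k2 (0.42 ± 0.29, adjusted p = 0.485).

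Of 15 kept inhibitors of receptor signalling, 1 rose and 1 fell. Grb10, an imprinted adaptor that binds the activated insulin and IGF1 receptors and dampens them, had signals of 948, 1738 and 693 in marrow and 7679, 6343 and 5808 in fetal liver, far apart (2.65 ± 0.31, SE, adjusted p = 0.000912). Pik3ip1, a membrane inhibitor of PI3 kinase, went from 371, 645 and 652 to 124, 70.0 and 69.0 (-2.63 ± 0.45, adjusted p = 0.00771). Each was past the threshold in all of its alternatives, 16 for Grb10 and 17 for Pik3ip1, and the other 2 kept probe sets of Grb10 had the same sign.

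FOXO factors and their target genes, which FOXO activates where insulin or IGF signalling is low, had 13 of 16 kept genes lower in fetal liver and a median change of -0.85 (-0.60 under median centring), against 0.01 over all genes. Of these, 2 fell past the threshold and 1 rose, 18.8% against 6.36% of all genes. This list too was chosen with earlier results known, so the share and the median are a description only. Sesn3, a sestrin that restrains mTOR, fell from 342, 239 and 270 to 49.4, 81.0 and 50.4 (-2.20 ± 0.47, SE, adjusted p = 0.0237), and Txnip, a thioredoxin-binding protein that limits glucose uptake, from 2337, 4874 and 2179 to 629, 1159 and 1336 (-1.55 ± 0.37, adjusted p = 0.0368). Sod2, the mitochondrial superoxide dismutase, rose from 4542, 2706 and 3169 to 7496, 5776 and 5879 (0.90 ± 0.22, adjusted p = 0.0450), though only 1 of its 3 other kept probe sets had that sign. Foxo1 and Foxo3 themselves did not pass (-1.35 ± 0.46 and -0.73 ± 0.20, adjusted p = 0.128 and 0.0679), and Irs2 and Insr stand in this list too.

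These FOXO list calls rested on few arrays. Sesn3 was past the threshold without marrow replicate 2 but not without any other array (adjusted p = 0.0554 to 0.101), Txnip without marrow replicate 3 only (0.0582 to 0.0994 without each of the others) and Sod2 without marrow replicate 1 only (0.104 to 0.126). The Txnip call was also lost under median centring (-1.30, adjusted p = 0.0638) and without the intensity trend (0.139), and the Sod2 call with no filter (0.0627) and without the trend (0.189). Granulocyte and monocyte RNA moved with the tissue in the same arrays: the summed signal of 9 of their markers was 43175 to 61742 in marrow and 4750 to 6666 in fetal liver, with Mpo at means of 17513 and 3558, S100a9 at 9793 and 195, and Ltf on no fetal liver array above background. Its part in these results was not tested.

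Of 12 kept genes of mannose 6-phosphate sorting, the other task of IGF2R, 0 passed (2 at an unadjusted p under 0.05, Igf2r and Sort1). Sort1, sortilin, differed by -0.60 ± 0.24 (SE, adjusted p = 0.184), and M6pr, the smaller mannose 6-phosphate receptor, by -0.06 ± 0.18 (adjusted p = 0.903). Of 5 kept glucose transporters and hexokinases, Slc2a1, the transporter GLUT1, rose from 1989, 2148 and 3534 to 5402, 7101 and 5491 (1.27 ± 0.24, adjusted p = 0.0146). That call was lost without marrow replicate 1 and fetal liver replicates 2 and 3 (adjusted p = 0.0503, 0.0793 and 0.0520), and without the trend (0.103).

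**Figure D4:**
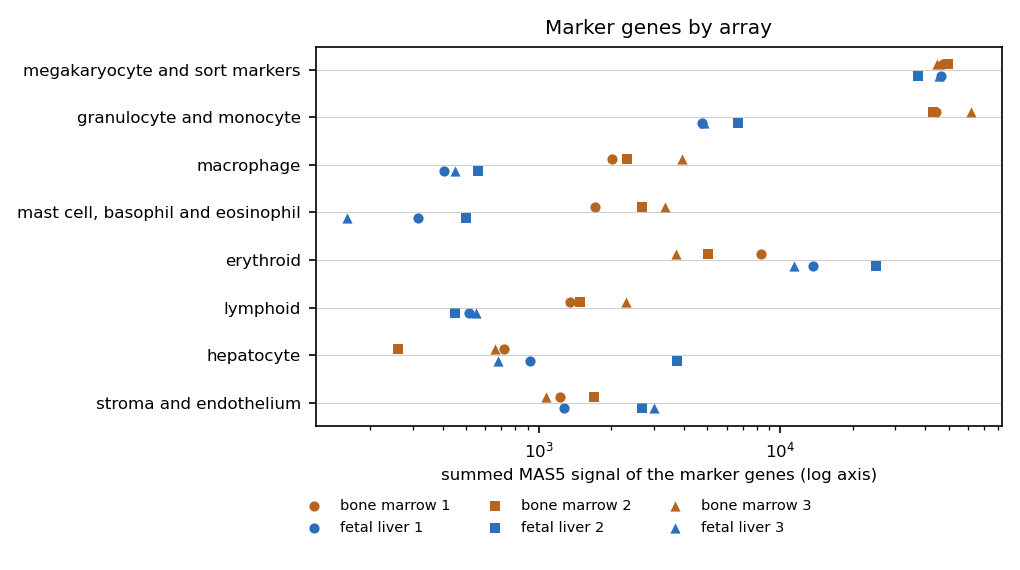
Summed MAS5 signal (log axis) of the marker genes of 8 cell types on each array, marrow in brown and fetal liver in blue, with the marker shape giving the replicate. Megakaryocyte markers lie close together (37330 to 49524), while granulocyte, macrophage and mast cell markers are higher in marrow and erythroid markers higher in fetal liver on every array.

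The samples carried the markers of their sort. Of 11 megakaryocyte and sort markers with a probe set, 10 were above background in marrow, all but Gp6, and 11 in fetal liver, with Pf4 and Itgb3 the brightest and summed signals of 44889 to 49524 and 37330 to 46556. Genes listed as markers of other lineages gave signals in both tissues. Mast cell, basophil and eosinophil markers summed to 1714 to 3337 in marrow and 160 to 498 in fetal liver (Ms4a2 at means of 721 and 103, Prg2 at 707 and 9.75, with Mcpt8, Fcer1a, Prg2 and Epx on no fetal liver array above background). Erythroid markers summed to 3689 to 8352 and 11379 to 24879 (Ermap at 2630 and 6765, Slc4a1 at 1415 and 3632, with Hba-a1 above background in neither tissue and Hbb-y not in marrow). Lymphoid markers summed to 1352 to 2303 and 450 to 550, led by Nkg7 and Cd79b, and 6 of the 9 were on no fetal liver array above background. Genes listed for stroma and endothelium summed to 1074 to 1687 and 1270 to 3009, led by Pecam1 and Kdr, with Dcn and Lum above background in neither tissue. Whether the Pecam1 signal came from such cells or from the MkP cannot be told apart in these bulk samples. The part of any of these cells in the members' values was not tested.

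The arrays also differed as wholes. Of 5 array measures, the median signal (marrow 76.9 ± 3.06 and fetal liver 64.2 ± 1.34, SD, n = 3 each) and the 5′ to 3′ ratio of Actb (1.09 ± 0.038 and 0.961 ± 0.065) separated the tissues, each at an exact two-sided permutation p of 0.1, the smallest that 3 against 3 allows (0.25 adjusted over the 5). Median centring removed the first difference, moved the median change of all kept probe sets by 0.25 (log2) and turned the balance of calls from 64.8% to 35.2% higher in marrow.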

How the data were processed

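Gene expression was measured on 6 arrays, 3 of bone marrow MkP and 3 of fetal liver MkP, grouped by the sample labels. The deposited intensity values, 1 linear signal per probe set, are MAS5 output per the submitters' processing notes. Its version, its scaling and the genome build are not stated in the sources used. Each array had a trimmed mean (2% at each end) of 500. Precision is limited by the number of arrays.

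Signals became log2(signal + 2.87), the offset being the 10th percentile, and probe sets with a mean above the 40th percentile were kept. The tissues were compared by lmFit and trended eBayes (limma 3.58.1, R 4.3.3), adjusted over all 27022 kept probe sets. The code was tested on simulated arrays with independent normal errors, a check of the code and not of the calls made here. Symbols came from the platform annotation (34945 probe sets with 1, 932 with several, 9160 with none). "At least N-fold" sets the brighter tissue's mean log2 against the mean, in the dimmer, of the higher of each array's own signal and highest of 27 bacterial controls. For a pathway or marker list each gene was taken at its brightest kept probe set; of each list up to 4 called genes, by size of change, or else the 2 of smallest p, are named, with the 2 brightest markers of each cell type and, for each member, the 2 genes of most similar pattern. Further pathway genes and markers named in the text were chosen after their values were seen. The members and lists were chosen with earlier results of these data known. Alternatives covered the offset, a floor, scaling, filter, variance model, probe set rule, replicate block and each array left out. Figures used matplotlib 3.10.9.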

Additional observations from a re-analysis of the deposited data

How the results depend on the processing

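Over the alternatives, the changes of the 18 tested member probe sets kept direction and side of the threshold in 265 of 284 cases, became called in 12 and reversed in 7, all of probe sets near 0: 1452108_at of Igf1r (0.13 under median centring, -0.29 to 0.092 with an array left out) and 1421380_at of Insr (0.12 under quantile normalization, 0.24 under median centring, and -0.22 to 0.20 with an array left out). Called member probe sets, 0 in either direction, were 1 higher in fetal liver under median centring, and 1 in each direction with a floor at the bacterial controls. There was 1 higher in marrow with an offset of 16 and with the filter at the 60th percentile. With an array left out they were 0 to 1 higher in fetal liver and 0 to 2 higher in marrow. Pathway genes called, 6 higher in fetal liver and 5 in marrow, were 10 and 3 under median centring, 3 and 3 without the intensity trend, and 2 to 5 and 2 to 5 with an array left out. Over all kept probe sets, 482 were called higher in fetal liver, 886 in marrow. These were 1291 and 701 under median centring and 195 and 526 without the trend. With 1 probe set per gene 553 and with the mean of a gene's probe sets 589 genes were higher in marrow, each of 11625 genes tested. With an array left out the counts were 140 to 455 and 477 to 689.

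In a fit with replicate numbers as a block (the replicate block), 3 probe sets of Igfbp4 were called lower in fetal liver (adjusted p = 0.0370, 0.0479 and 0.0377 for 1421992_a_at, 1423756_s_at and 1437405_a_at), pathway genes called were 7 and 8, and all probe sets 717 and 1077. Same-numbered arrays correlated at 0.12, -0.02 and 0.10 in their deviations from the tissue means, and not every array correlated best with its own number. Whether same-numbered samples share more than a number was not tested. For the changes of value between fits the cause was not tested. Signals near the bacterial controls (Igf1, Irs1, Irs2) limit what can be compared.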
